A study of Mus musculus with 6 samples.

Results

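Fibronectin, the laminins and their integrin receptors were followed in tailbud RNA from mouse embryos with and without a mutation of the chromatin protein SMCHD1. The set was a list of 10 genes chosen by name: the matrix genes Fn1 and Fbn2, the laminin chain genes Lama1, Lama5, Lamb1 and Lamc1, and the integrin genes Itga5, Itga6, Itgav and Itgb1. All 10 were found among the 35506 genes of the table, and all 10 passed the filter on low values that left 13617 autosomal genes to test. No member differed between the genotypes after adjustment for all genes tested. Itga6, at 7.68 ± 0.146 RPKM in wild type and 6.86 ± 0.233 in mutant tailbuds (SD, n = 3 each), was the only member whose groups did not overlap. Its unadjusted p was 0.052 (limma), and groups did not overlap for 7.08% of all autosomal genes, in either direction.

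Fibronectin is secreted as a soluble dimer that cells assemble into fibrils by pulling on it through integrins. Integrins are paired receptors of one alpha and one beta chain that join the matrix outside the cell to the actin skeleton inside it, and the alpha chain largely sets which ligand is bound. Laminins are heterotrimers of an alpha, a beta and a gamma chain that build the sheet of basement membrane under epithelia. In the tail end of the embryo, presomitic mesoderm lies in a fibronectin-rich matrix, and the epithelial somites that form from it need fibronectin and the integrin alpha5 beta1.

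Libraries were made from polyA RNA of dissected tailbud containing the presomitic mesoderm, from FVB/NJ embryos with 8 somites at embryonic day 8.5. The 3 WT embryos were Smchd1+/+ and the 3 MommeD43 embryos were Smchd1MommeD43/MommeD43, homozygous for a missense allele that arose in a chemical (ENU) mutagenesis screen. The design names no transgene or drug, and the embryos serve as biological replicates, 1 library each. Every pair of libraries differed by more than sampling noise. Each group held a male (replicate 1) and a pair of females (replicates 2 and 3). By the labels the males share a mother, while the 4 females come from 4 other mothers. Levels are given as RPKM, reads scaled to exon length and to library size, which can be compared between genes, and fold changes are MommeD43 minus WT on the log2 RPKM scale.

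Library totals and reads per gene were derived from the deposited RPKM. Totals ran from 10957917 to 47298349 reads, a 4.32-fold range, and every member had at least 627 reads in each library. Neural stem cells are named as the source in 1 field of the labels, and tailbud in the tissue field and the titles. All 10 tailbud and presomitic marker genes were detected in every library, with a summed level of 442.2 to 622.8 RPKM in WT and 458.1 to 550.7 in MommeD43, against 1.45 to 4.12 and 1.37 to 4.02 for 6 neural markers, of which Dbx1 had no read. Summed levels of 8 visceral endoderm and yolk sac markers varied 11.58-fold and those of 8 primitive blood markers 54.6-fold between libraries. Those of 6 trophoblast and decidua markers varied 14.65-fold, from 1.59 to 10.8 RPKM in WT and from 5.36 to 23.3 in MommeD43. For each of these lists the ranges of the genotypes overlapped. Smchd1 itself was at 8.07 ± 0.672 RPKM in WT and 7.58 ± 0.3997 in MommeD43 (log2 fold change -0.09 ± 0.089, SE); the allele is a missense change, so that the level of its RNA is no check of the labels.

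Of the 13617 autosomal genes, 0 (0%) passed an adjusted p of 0.05 in the limma test of genotype, and so did 0 of the 10 members. At an unadjusted p under 0.05 there were 327 autosomal genes (2.4%) and 0 members. Groups did not overlap, in either direction, for 7.08% of autosomal genes and for 1 of 10 members, Itga6, which was lower in MommeD43 as were 3.55% of autosomal genes. Fold changes of 6 members were above 0 and those of 4 below it, against 6945 above and 6672 below among all autosomal genes. Of the members above 0, only Itga5 kept its sign in every alternative fit. Fn1, Lama1, Lamb1, Itgb1 and Fbn2 each turned below 0 in some, Fn1 to -0.0317 with voom on recovered reads. The members' median was 0.03, against 0.00 for all autosomal genes, and the median of their absolute values was 0.07, against 0.08. All 10 confidence intervals included 0, and their half-widths ran from 0.13 for Lamc1 to 0.49 for Fbn2 on the log2 scale. The adjusted p by limma was 0.999 for each member and is not repeated below.

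**Figure D1:**
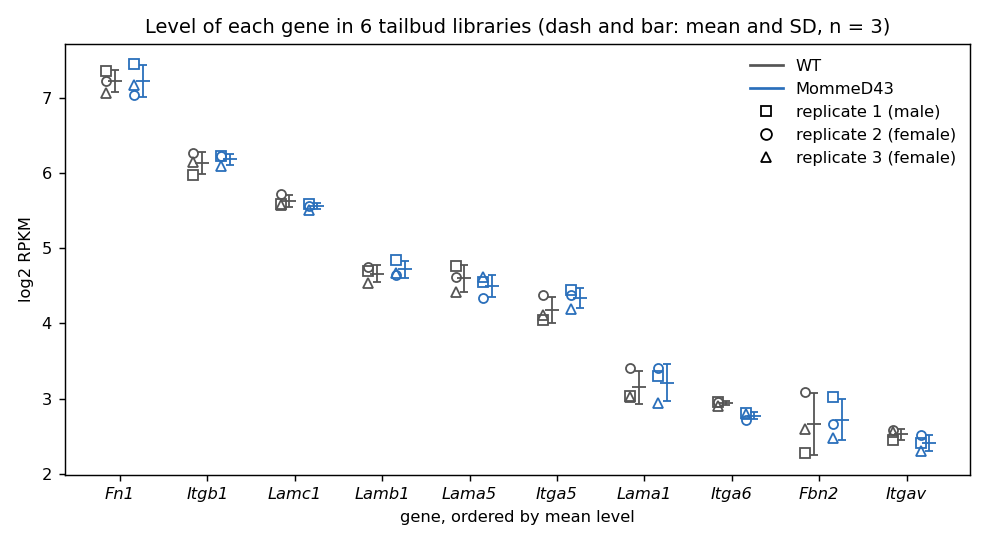
Level of each gene (log2 RPKM) in the 6 libraries, genes ordered by their mean; squares are the male replicate 1, circles and triangles the female replicates 2 and 3, and the dash with its bar is the mean and SD of 3 embryos. WT and MommeD43 points overlap for each gene but Itga6, and Fn1 lies 26.9-fold above Itgav.

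Transcript levels were spread over more than an order of magnitude, and the order was led by the matrix ligand and the shared receptor chain. Fn1 was the highest member, followed by Itgb1, Lamc1, Lamb1, Lama5, Itga5, Lama1, Itga6, Fbn2 and Itgav, with a 26.9-fold ratio between Fn1 and Itgav in geometric mean RPKM. Fn1 ranked 227 of the 13617 autosomal genes by level and Itgb1 ranked 527, whereas Itgav stood at the 51.2 percentile. The steps from Fn1 to Itgb1, from Itgb1 to Lamc1, from Lamc1 to Lamb1 and from Itga5 to Lama1 were larger than the spread over libraries, as the ranges of both genes did not overlap. Ranges overlapped between Lamb1 and Lama5, Lama5 and Itga5, Lama1 and Itga6, Itga6 and Fbn2, and Fbn2 and Itgav, so that these neighbours were not separated by level. Within each library, Lama1 still exceeded Itga6 in 6 of 6, while Lamb1 exceeded Lama5 in 5 of 6 and Itga6 exceeded Fbn2 in 4 of 6.

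Fn1 (ENSMUSG00000026193, GRCm38 chr1:71585520-71653200, minus strand) encodes fibronectin, the main fibrillar ligand of this matrix. It was at 164.3, 149.4 and 134.0 RPKM in WT replicates 1 to 3, and at 175.2, 130.9 and 144.0 in MommeD43 replicates 1 to 3. The highest and the lowest library were both MommeD43, and the WT values lay within that range. The group means were 149.2 ± 15.2 and 150.0 ± 22.8 RPKM (SD, n = 3), a log2 fold change of 0.00 ± 0.114 (SE, limma) with a 95% confidence interval from -0.26 to 0.26. This gene had the smallest fold change of the set, and the depth behind it was the greatest, with 22029 to 72327 reads per library. A stretch of 2.5% of its exon bases is shared, on the other strand, with an antisense gene that the annotation names Apol7d, and the strand setting of the counting is not given in the sources used here.

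Fbn2 (ENSMUSG00000024598, chr18:58008623-58210487, minus strand) encodes fibrillin-2, the microfibril protein that prevails in embryos. Its level was 4.87, 8.55 and 6.07 RPKM in WT and 8.14, 6.32 and 5.59 in MommeD43. Embryos differed more for this gene than for any other member, over a 1.76-fold range, and both ends of that range were WT. The log2 fold change was 0.06 ± 0.212 (SE, limma), with an interval from -0.42 to 0.55 that leaves room for a ratio of MommeD43 to WT anywhere from 0.745 to 1.46. Its sign depended on the males, as it was -0.13 without WT replicate 1 and -0.09 without MommeD43 replicate 1. Fbn2 made up 80.6% ± 2.11 of the summed RPKM of both fibrillin genes in WT and 80.3% ± 3.73 in MommeD43, and Fbn1 the remainder. An overlap of 0.976% of its exon bases lies with Gm26507 on the other strand.

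Among the laminin alpha chains, which carry most of the receptor-binding sites of a laminin trimer, Lama5 prevailed. Lama5 (ENSMUSG00000015647, chr2:180176373-180225859, minus strand), the alpha chain of laminin-511, was at 27.1, 24.6 and 21.3 RPKM in WT and at 23.4, 20.2 and 24.5 in MommeD43. The groups overlapped, with the highest value in the WT male and the lowest in MommeD43 replicate 2, and the log2 fold change was -0.10 ± 0.104 (SE, limma; interval -0.34 to 0.14). Lama1 (ENSMUSG00000032796, chr17:67697259-67822647, plus strand), the alpha chain of laminin-111, an early embryonic laminin, lies on the chromosome of Smchd1, 3.52 Mb from it. It was at 8.20, 10.6 and 8.12 RPKM in WT and at 9.86, 10.6 and 7.66 in MommeD43. Its values in replicate 2 of both groups were equal to 3 digits and above the others, and the fold change of 0.06 ± 0.147 (SE, limma; interval -0.28 to 0.40) was well within the spread between embryos.

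Lama5 made up 69.5% ± 4.18 of the RPKM summed over the 5 laminin alpha genes in WT and 66.8% ± 4.74 in MommeD43 (SD, n = 3), and Lama1 25.6% ± 3.05 and 27.7% ± 5.16. Most of the rest was Lama4, at 4.60% and 5.37%, while Lama2 and Lama3 each stayed under 0.3% in every library. The ratio of Lama1 to Lama5 ran from 0.302 to 0.431 in WT and from 0.313 to 0.524 in MommeD43. These ranges overlapped, and the log2 ratio differed by 0.16 (exact permutation test, two-sided, p = 0.6). With 3 embryos against 3 the smallest p this test can give is 0.1, so no ratio could pass 0.05, and this holds for the 5 ratios of members that were computed.

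The beta1 and gamma1 chains, which are shared by laminin-111 and laminin-511, were the prevailing chains of their kinds. Lamb1 (ENSMUSG00000002900, chr12:31265234-31329644, plus strand) was at 26.0, 27.0 and 23.2 RPKM in WT and at 28.9, 25.1 and 25.5 in MommeD43. Lamc1 (ENSMUSG00000026478, chr1:153218922-153332786, minus strand) was at 48.2, 52.7 and 47.5 RPKM in WT and at 48.2, 47.2 and 45.7 in MommeD43. Lamc1 values spanned a 1.15-fold range over all 6 libraries, the narrowest of the set, and Lamb1 values a 1.24-fold range. For both genes the groups overlapped. The log2 fold changes were 0.06 ± 0.080 for Lamb1 (SE, limma; interval -0.13 to 0.24) and -0.07 ± 0.057 for Lamc1 (SE, limma; interval -0.20 to 0.06).

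Lamb1 held 81.1% ± 0.524 of laminin beta RPKM in WT and 82.7% ± 1.87 in MommeD43, and Lamc1 96.5% ± 0.747 and 96.1% ± 0.473 of laminin gamma RPKM. Their relatives were low: Lamb2, a chain of adult basement membranes, took 17.1% ± 0.167 of the beta total in WT and 15.7% ± 1.07 in MommeD43. The groups of this share did not overlap, although the Lamb2 level itself did overlap (log2 fold change -0.09 ± 0.095, SE, limma). Shares were read for every gene of the integrin, laminin and fibrillin families, and that of Itgb3 was the only other without overlap. By level, groups did not overlap for 7.08% of autosomal genes. The ratio of Lamb1 to Lamc1 was 0.539, 0.512 and 0.489 in WT and 0.598, 0.530 and 0.557 in MommeD43. The range of both groups overlapped and the log2 ratio differed by 0.13 (exact permutation test, two-sided, p = 0.2).

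**Figure D2:**
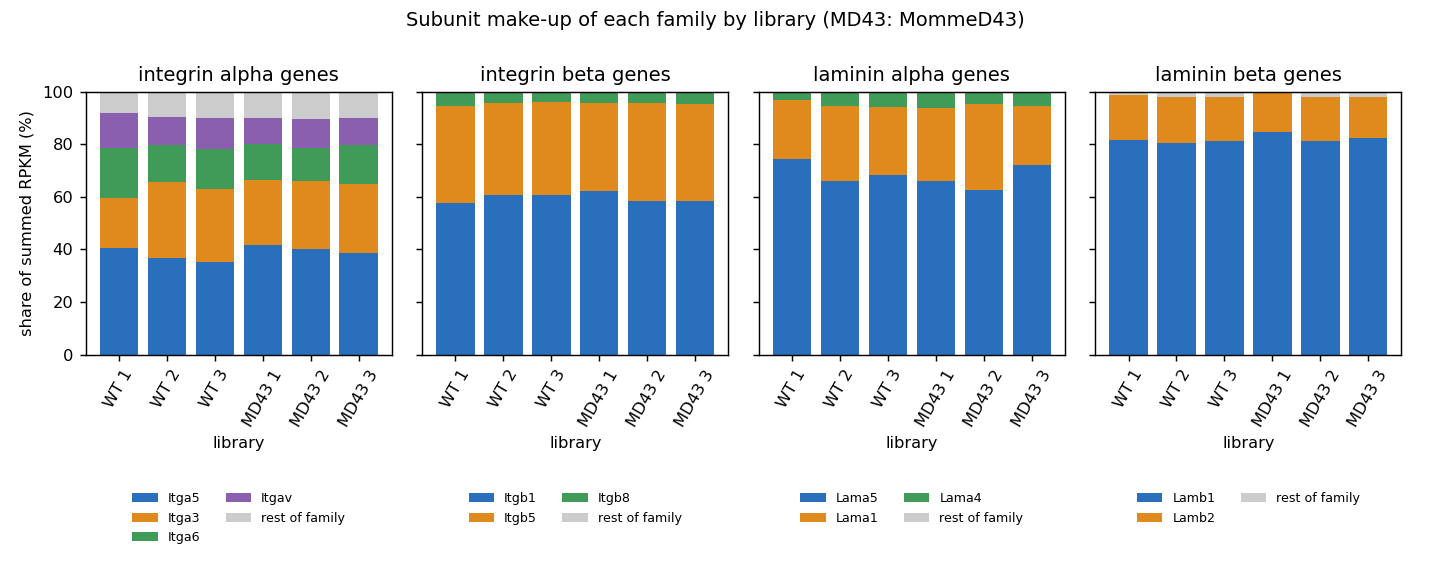
Share (%) of each subunit gene in the summed RPKM of its family, for integrin alpha, integrin beta, laminin alpha and laminin beta genes, one bar per library. Itga5, Itgb1, Lama5 and Lamb1 take the largest part of their families in every library of both groups.

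The integrin alpha genes Itga5 and Itgav encode receptors that bind the RGD site of fibronectin, and Itga6 a receptor of laminins. Itga5 (ENSMUSG00000000555, chr15:103344286-103366763, minus strand), the classical fibronectin receptor chain, was at 16.5, 20.7 and 17.3 RPKM in WT and at 21.7, 20.8 and 18.3 in MommeD43. MommeD43 values lay toward the upper end, but WT replicate 2 exceeded MommeD43 replicate 3 and the groups overlapped. The log2 fold change, the highest of the set, was 0.16 ± 0.101 (SE, limma; interval -0.07 to 0.39). Itgav (ENSMUSG00000027087, chr2:83724397-83806916, plus strand) was at 5.45, 6.01 and 5.86 RPKM in WT and at 5.33, 5.71 and 4.96 in MommeD43. Its groups overlapped through MommeD43 replicate 2, which exceeded the WT male, and its fold change was -0.12 ± 0.091 (SE, limma; interval -0.33 to 0.09). Of its exon bases, 5.9% are shared with Gm13684 on the other strand.

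Itga6 (ENSMUSG00000027111, chr2:71745616-71858416, plus strand) was at 7.78, 7.74 and 7.51 RPKM in WT and at 7.05, 6.597 and 6.93 in MommeD43. Every MommeD43 embryo was below every WT embryo, and the spread within each group was small, 0.146 RPKM in WT and 0.233 in MommeD43 (SD). The log2 fold change was -0.16 ± 0.072 (SE, limma), a ratio of 0.893 with a 95% confidence interval from 0.796 to 1.001, and it did not pass either threshold. With voom on recovered reads, and with genes under a mean log2 RPKM of 1 left out, it passed the unadjusted threshold but not the adjusted one. As the groups did not overlap, the direction had to be the same in males (-0.14) and females (-0.17), which adds no further evidence. This 1 member of 10 is to be read against the 3.55% of all autosomal genes that were lower in MommeD43 without overlap. Itga6 had 697 to 2816 reads per library.

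Itgb1 (ENSMUSG00000025809, chr8:128685654-128733200, plus strand), the beta chain that pairs with Itga5, Itgav and Itga6 among others, was at 63.0, 77.0 and 70.6 RPKM in WT and at 74.7, 74.8 and 68.2 in MommeD43. The WT male was the lowest and WT replicate 2 the highest, with the MommeD43 embryos between them. The log2 fold change was 0.05 ± 0.079 (SE, limma; interval -0.13 to 0.23). Itgb1 took 59.7% ± 1.71 of the RPKM summed over the 8 integrin beta genes in WT and 59.7% ± 2.29 in MommeD43, followed by Itgb5, a partner of Itgav and a vitronectin receptor chain, at 35.7% ± 1.04 and 35.9% ± 2.10. Itgb8 accounted for 4.03% and 3.81%, and Itgb6 had no read in any library.

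Over the 18 integrin alpha genes, Itga5 held 37.5% ± 2.75 of the summed RPKM in WT and 40.2% ± 1.56 in MommeD43. Itga3, a laminin receptor chain outside the set, came second at 25.2% ± 5.40 and 25.6% ± 0.870, ahead of Itga6 at 16.03% ± 2.74 and 13.6% ± 0.952 and Itgav at 12.0% ± 1.34 and 10.6% ± 0.407. Shares of all 4 genes overlapped between the genotypes, that of Itga6 included. Itga5 exceeded Itga6 by ratios of 2.12, 2.67 and 2.31 in WT and of 3.08, 3.15 and 2.64 in MommeD43. MommeD43 replicate 3 was just under WT replicate 2, so that the groups overlapped, and the log2 ratio was higher by 0.32 in MommeD43 (exact permutation test, two-sided, p = 0.2).

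Ligand and receptor were also set against each other. The ratio of Fn1 to Itga5 was 9.95, 7.22 and 7.74 in WT and 8.06, 6.30 and 7.88 in MommeD43, with overlapping groups and a log2 difference of -0.16 (exact permutation test, two-sided, p = 0.6). The ratio of Itgb1 to Itga5, beta chain to alpha chain of the fibronectin receptor, had the smallest SD within groups of the 5, and ran from 3.72 to 4.08 in WT and from 3.44 to 3.73 in MommeD43 (log2 difference -0.11, exact permutation test, two-sided, p = 0.2). The 5 ratios share genes and are not separate pieces of evidence.

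**Figure D3:**
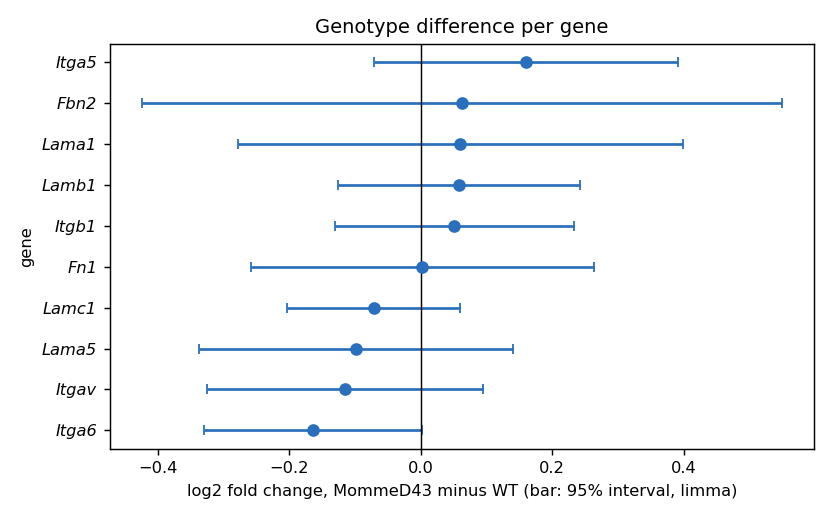
Log2 fold change of each gene, MommeD43 minus WT, with its 95% confidence interval from limma (n = 3 embryos per group); the vertical line marks no difference. All 10 intervals include 0, with Itga6 lowest at -0.16 and Itga5 highest at 0.16.

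Deviations of the members from their mean over the 6 libraries were counted per embryo. WT replicate 2 was above that mean for 10 of 10 members and held the highest value of Lamc1, Itgav, Itgb1 and Fbn2 and, almost level with MommeD43 replicate 2, of Lama1, with a median deviation of 0.11 on the log2 scale. WT replicate 3 was below that mean for 8 of 10 members (median deviation -0.11) and MommeD43 replicate 3 for 9 of 10 (median -0.07), while MommeD43 replicate 1 was above it for 7 of 10 and held the highest value of Fn1, Lamb1 and Itga5. WT replicate 1 and MommeD43 replicate 2 were each above it for 4 and below it for 6 (median deviations -0.01 and -0.03). The same counts over all autosomal genes are not given here, so these are not read as a trait of the members. Median-ratio scaling factors beyond the library totals ran from 0.9925 in MommeD43 replicate 1 to 1.007 in MommeD43 replicate 3. Markers of other tissues were read beside these counts. The summed level of primitive blood markers was 8.87, 484.5 and 204.1 RPKM in WT replicates 1 to 3 and 25.4, 219.1 and 22.6 in MommeD43 replicates 1 to 3, and that of visceral endoderm and yolk sac markers was 136.3, 246.3 and 276.9 in WT and 430.6, 50.7 and 37.2 in MommeD43. WT replicate 2 was highest in blood markers and MommeD43 replicate 1 in visceral endoderm markers. WT replicate 3, low for most members, was second in visceral endoderm markers, and MommeD43 replicate 1 was low in blood markers. All 8 genes of each list were detected over the 6 libraries, among them Hbb-bh1, an embryonic globin, and Ttr and Apoa1, secreted by visceral endoderm. Summed markers of parietal endoderm, a tissue that secretes laminin in bulk, ran from 7.16 to 7.73 RPKM in WT and from 7.34 to 9.67 in MommeD43, highest in MommeD43 replicate 1. Those of endothelium were at 30.85, 51.68 and 45.05 RPKM in WT replicates 1 to 3 and 53.18, 43.26 and 43.67 in MommeD43. They were lowest in WT replicate 1, as were Itga5, Itgb1 and Fbn2, and highest in MommeD43 replicate 1. Those of notochord and node were at 11.52, 14.82 and 16.17 in WT and 13.92, 14.35 and 7.125 in MommeD43. The part of these tissues in the members' values was not tested, and in bulk tissue fewer cells of a type and less RNA per cell cannot be told apart.

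Since replicate 1 of both groups was male, the genotype difference was also taken within each sex. In the male pair, 1 embryo against 1 of the same mother, 7 of 10 members were higher in MommeD43, and in females, 2 embryos against 2, only Lamb1 and Itga5 were, so that 5 members had opposite signs. Lamc1 counts among both the 7 and the 5 with a male difference of only 0.002 on the log2 scale. The difference between the sexes was tested in a limma fit with a genotype term for each sex, which has 2 residual degrees of freedom per gene before pooling over genes. The males, 1 per genotype, add none of them, so that the error of each difference is that of the females and assumes that males vary alike. Of the autosomal genes, 37 (0.272%) passed an adjusted p of 0.05 and 1471 (10.8%) an unadjusted p of 0.05, and of the members 0 and 1. The member at an unadjusted p under 0.05 was Fbn2, whose male pair stood at 4.87 RPKM in WT and 8.14 in MommeD43 (0.74 on the log2 scale) and whose female groups differed by -0.28. Its male minus female difference was 1.02 ± 0.292 (SE; interval 0.32 to 1.71; adjusted p = 0.313, limma).

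Next came Itgb1, at 0.25 in the male pair and -0.05 in females, a difference of 0.29 ± 0.126 (SE, limma, adjusted p = 0.474) that passed the unadjusted threshold with median-ratio scaling and with no filter beyond 1 read, and Itga5, at 0.40 and 0.04, a difference of 0.36 (limma, adjusted p = 0.523). For Itga6 the values were closest, -0.14 and -0.17. The difference was above 0 for 9 of 10 members, Lama5 being the exception at -0.21 in the male pair and -0.04 in females. These 9 rest on the same 2 male embryos and are not separate observations. The share of all autosomal genes above 0 is not given here, so the count is not read as a trait of the members. With 1 male per genotype, a difference between these embryos and a difference between the sexes cannot be told apart.

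**Figure D4:**
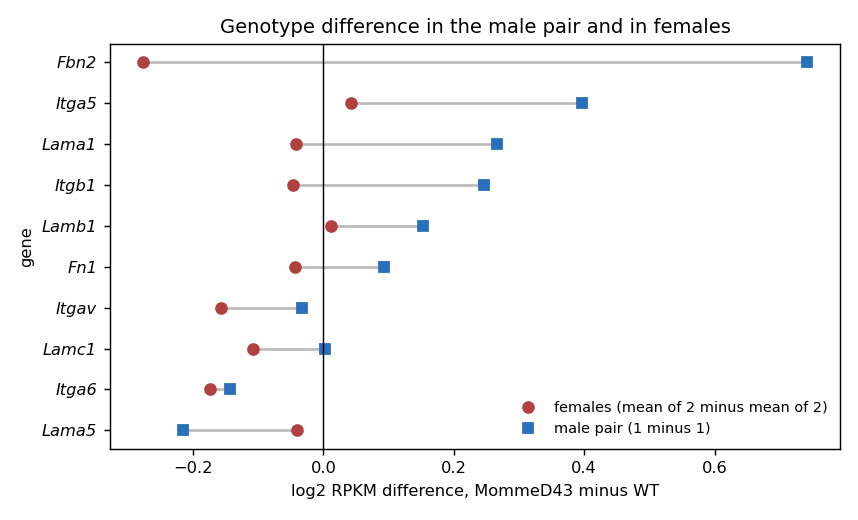
Log2 RPKM difference, MommeD43 minus WT, in the male pair (squares, 1 embryo against 1) and in females (circles, mean of 2 against mean of 2), joined per gene. Fbn2 has the widest gap, from -0.28 to 0.74, and Itga6 the narrowest, from -0.17 to -0.14.

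The other genes of matrix adhesion, 101 in 5 lists, were read in the same fit. Of these, 89 passed the filter, 0 passed an adjusted p of 0.05, and at an unadjusted p under 0.05 there were 3 higher and 2 lower, against 2.4% of all autosomal genes. Groups did not overlap for 3 of the 89 that were higher and 1 that was lower, against 7.08% of all autosomal genes in either direction. The median log2 fold change of the 89 was 0.02, and the adjusted p by limma was 0.999 for each gene named here. Among 22 other integrins, 15 were tested, and Itgb5 (41.9 ± 2.21 RPKM in WT, 43.6 ± 3.75 in MommeD43) and Itga3 (12.6 ± 4.36 and 12.9 ± 0.467) were the most abundant. The smallest p was that of Itgb3, a platelet and endothelial integrin chain, at 0.208, 0.337 and 0.122 RPKM in WT and 0.464, 0.358 and 0.363 in MommeD43 (log2 fold change 0.94 ± 0.409, SE, limma). These groups did not overlap, but the values rest on 12 to 100 reads per library, and the fold change was 0.57 without WT replicate 3 and 0.19 on the log2(RPKM + 1) scale.

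Among 15 other laminin chains and basement membrane genes, 13 were tested. Nid2, a nidogen that links laminin to collagen IV, and Agrn, the proteoglycan agrin, were the most abundant, at 41.1 and 34.7 RPKM in WT and 41.7 and 33.3 in MommeD43. Sparc, a collagen-binding matrix protein made in bulk by parietal endoderm, had the smallest p of all 89 genes. It was at 23.7, 31.3 and 31.2 RPKM in WT and at 37.4, 35.9 and 34.9 in MommeD43, without overlap (log2 fold change 0.34 ± 0.107, SE, limma). This value was 0.21 without WT replicate 1 and 0.18 in females alone. The library with the highest Sparc, MommeD43 replicate 1, also had the highest sums of parietal and visceral endoderm markers, but MommeD43 replicates 2 and 3, next in Sparc, had the lowest visceral sums, and WT replicate 2 had a higher parietal sum than MommeD43 replicate 2 (7.73 against 7.34 RPKM). Of the parietal markers, Thbd was at 0.132, 0.171 and 0.210 RPKM in WT and 0.392, 0.557 and 0.226 in MommeD43, without overlap. The groups of Pth1r, which made up most of the parietal sum, and of Plat overlapped. Whether these tissues have a part in the Sparc difference was not tested.

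Fibronectin-linked and microfibril genes numbered 27, of which 24 were tested, with Fbln1 (fibulin-1) and Vcan (the proteoglycan versican) the most abundant at 30.4 and 23.2 RPKM in WT and 30.1 and 20.2 in MommeD43. Frem2, a basement membrane protein of the Fraser complex, was at 15.5, 15.6 and 13.3 RPKM in WT and at 11.9, 11.6 and 13.7 in MommeD43 (log2 fold change -0.26 ± 0.092, SE, limma). Its groups overlapped, as MommeD43 replicate 3 exceeded WT replicate 3. Fold changes of the 7 other matrix receptors ran from 0.01 to 0.23, with a median of 0.15 and 0 at an unadjusted p under 0.05. The most abundant were the syndecan Sdc1 (43.0 RPKM in WT, 45.4 in MommeD43) and the dystroglycan gene Dag1 (29.7 and 29.9), and the smallest p was that of the syndecan Sdc2 (log2 fold change 0.15 ± 0.078, SE, limma; 0.25 in females alone and 0.09 without WT replicate 2).

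All 30 genes of the intracellular integrin machinery were tested, and their median log2 fold change was -0.01. The actin crosslinkers Actn4 and Actn1 led by level, at 55.2 and 54.9 RPKM in WT and 55.8 in MommeD43 for both. Tln2, one of the talins that tie the integrin beta tail to actin, was at 7.98, 9.40 and 8.96 RPKM in WT and at 7.33, 7.62 and 7.88 in MommeD43. Each MommeD43 value was below each WT value, although MommeD43 replicate 3 and the WT male were close (log2 fold change -0.20 ± 0.084, SE, limma). Thbs1 and Itgb1bp1, named here after their values were seen, were the other genes at an unadjusted p under 0.05, both higher in MommeD43.

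**Figure D5:**
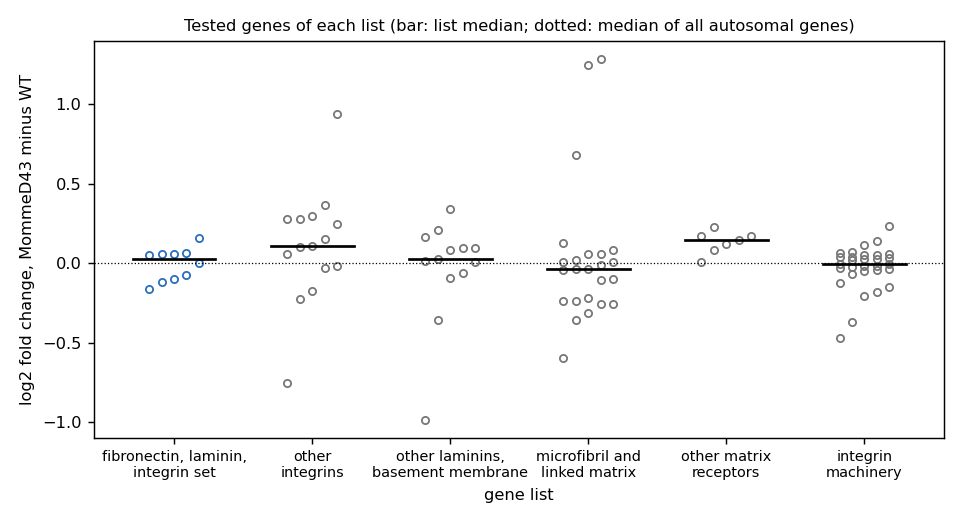
Log2 fold change, MommeD43 minus WT, of each tested gene in the set of 10 (blue) and in the 5 other adhesion lists (grey); bars are list medians and the dotted line the median of all 13617 autosomal genes. List medians run from -0.04 to 0.15.

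Genes whose level followed that of Fn1 and Fbn2 over the 6 libraries were listed as a description, without a test. Among 7652 autosomal genes with a mean log2 RPKM of at least 2, the highest Pearson r with Fbn2, the member with the largest SD, were those of Asph (0.987), Grrp1 (0.981), Impact (0.981), Srp72 (0.978) and Ildr2 (0.968). With Fn1, Sec31a and Emc1 (0.988 each), Pus7 (0.965) and Rpusd4 (0.963) were among the highest. None of the genes named is a member or a gene of the adhesion lists. With 6 points and this many genes, 57 genes exceeded an r of 0.9 with Fbn2 and 54 with Fn1, and the points share library depth and tissue content.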

How the data were processed

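RNA-seq libraries of tailbud from 3 WT and 3 MommeD43 embryos were grouped by the sample labels. By the submitters' processing notes and the methods of the study, trimming was done with Trim Galore 0.4.4, and reads were mapped with HISAT2 2.0.5 to GRCm38.p6 and quantified per gene in SeqMonk. The deposited values are log2 RPKM made by the authors, and their group mean columns, which equalled the means of the 3 columns, were not used. Of 35591 rows, 35555 matched GENCODE M21 by identifier, and 49 repeated rows were dropped. RPKM multiplied by exon length and library total gave whole reads, within 0.02, for 98.99% of 105979 values above 1 read. Undetected genes were taken to hold the RPKM of 0.9 read, and the library totals were derived from that value. Genes were kept if at least 3 libraries reached the CPM of 10 reads in a library of median size, with 15 reads in all.

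Autosomal genes were tested on the deposited log2 RPKM with limma 3.58.1 (R 4.3.3; mean-variance trend, two-sided, Benjamini-Hochberg adjustment over 13617 genes). Ratios of members were compared by exact permutation. On simulated data with 200 of 13617 genes changed 2-fold, 94% were recovered, with 16 calls among unchanged genes and 0 when none was changed. The simulation gave all genes the same spread between embryos and independent noise. It held no changes as small as those of the members, so the 94% does not apply to them. The paper describes the embryos as pairs matched by somite number. Deviations of same-numbered embryos correlated at 0.03, 0.43 and -0.29, not all above 0.1. The numbers were therefore not taken to pair the embryos, and the main fit used no block. Alternatives were other pseudocounts, filters and scalings, a sex covariate, the replicate block, females alone, voom on recovered reads and each library left out.

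The rule for named genes took all members and Smchd1. Of each other adhesion list it took the 2 genes with the highest mean RPKM, the one with the smallest unadjusted p and any past an adjusted p of 0.05. Of the genes that follow Fn1 and the member with the largest SD, it took the 5 with the highest r, of which 1 is not reported here. The members and lists were chosen with earlier results of these data known. Python 3.11.15, numpy 2.4.6, pandas 2.3.3 and matplotlib 3.10.9 served for the remaining steps.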

Additional observations from a re-analysis of the deposited data

How the results depend on the processing

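Across 16 alternatives, of which 6 left out a library, no member passed an adjusted p of 0.05 (the lowest was 0.596, limma), and Lama5, Lamc1, Itga5, Itga6 and Itgav kept their sign in each. Itga6 ranged from -0.18 to -0.14. The other 4 moved by over 1.5 times, Lama5 to -0.02 without WT replicate 1 or MommeD43 replicate 2, -0.19 without WT replicate 3, -0.16 without MommeD43 replicate 3 and -0.04 in females, Lamc1 to -0.02 without WT replicate 2 and -0.11 in females, Itga5 to 0.09 without WT replicate 1, 0.26 without WT replicate 2 and 0.04 in females, and Itgav to -0.07 without MommeD43 replicate 3. Autosomal calls stayed at 0 except in females alone, where there were 10, with 1188 genes at an unadjusted p under 0.05 against 327 in the reported fit and 187 to 944 elsewhere. Members at an unadjusted p under 0.05 numbered 1 with a mean log2 RPKM above 1 and 1 with voom (Itga6 in both), and 0 to 1 with a library left out (Itga5 without WT replicate 2). In females alone the fold changes turned to -0.0435 for Fn1, -0.0425 for Lama1, -0.0467 for Itgb1 and -0.28 for Fbn2, and the difference in the log2 ratio of Lama1 to Lama5 to -0.0017. With voom that of Fn1 was -0.0317.

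With 1 library left out, Fn1 ran from -0.12 (without MommeD43 replicate 1; -0.07 without WT replicate 3) to 0.10, Lama1 from -0.0353 (without MommeD43 replicate 2; -0.0063 without WT replicate 3) to 0.20, Lamb1 from -0.0055 (without MommeD43 replicate 1; -0.0045 without WT replicate 3) to 0.10, Itgb1 from -0.0249 (without WT replicate 1) to 0.12, Fbn2 from -0.13 (without WT replicate 1; -0.09 without MommeD43 replicate 1) to 0.28, and the ratio of Lama1 to Lama5 from -0.0176 (without MommeD43 replicate 2) to 0.36. Without the filter beyond 1 read, 111 genes had a sex difference, against 37. The replicate block gave 0 members and 0 autosomal calls, with 307 genes at an unadjusted p under 0.05. The cause of these shifts was not tested. With 3 embryos a group, the members' unadjusted 95% intervals reached 0.13 to 0.49 to each side of the fold change on the log2 scale.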
